A study of Homo sapiens with 5 samples.

Results

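Genes for chromatin remodellers and histone modifiers were chosen by name from the deposited table of poly(A) site read counts: every KDM, HDAC, SMARC, CHD, ARID (ARID1 to ARID5) and SETD gene, leaving out pseudogene names and sites on chromosome Y. This gave 74 of 29792 genes, with 1716 of 272248 distinct poly(A) sites. The names cover 16 lysine demethylases, 11 histone deacetylases, 10 CHD remodellers, 9 SETD methyltransferases, 16 SWI/SNF and other SMARC genes with ARID1 and ARID2, 7 other ARID genes and 5 antisense or intronic transcripts that carry such a name. The label was taken from gene families. SETD3 is an actin methyltransferase and SETD6 methylates a transcription factor, so not every named gene acts on chromatin itself.

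The study set HEK293T cells, an established human embryonic kidney line, with a knockout of CFIm68 or of CFIm59 against HEK293T cells without either. The groups were 2 CFIm68 knockout cell lines, 2 CFIm59 knockout cell lines, and 1 wild type control library. Each knockout was made with CRISPR/Cas9, and which part of the gene was edited, and how many clones stand behind a line, is not stated in the labels. CFIm68 (gene CPSF6) and CFIm59 (gene CPSF7) are the alternative large subunits of cleavage factor Im, and no agent or treatment other than the knockouts is given.

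Most human genes can be cleaved and polyadenylated at more than one place, and the choice sets how long the 3′ untranslated region is. Cleavage factor Im pairs a small subunit, which binds UGUA in the pre-mRNA, with CFIm68 or CFIm59, and loss of its subunits is known to change which site is used. Chromatin remodellers slide or evict nucleosomes with ATP, while methyltransferases, demethylases and deacetylases write or remove marks on histone tails. Many of these proteins act as parts of multi-subunit complexes such as SWI/SNF, ISWI and NuRD.

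Libraries held 2727728 and 2078376 reads for the CFIm68 knockout lines, 1673687 and 2585923 for the CFIm59 knockout lines, and 2924266 for the control. The chromatin genes took 0.376% and 0.389% of reads in CFIm68 knockout lines, 0.407% and 0.360% in CFIm59 knockout lines, and 0.336% in the control. They had 44291 reads in all, and 280 of their sites had 10 or more reads over the 5 libraries. As a check of the labels, CPSF6 had 138 and 103 reads in CFIm68 knockout lines, against 319 in the control, while CPSF7 had 114 and 134 reads in CFIm59 knockout lines, against 159 in the control. Scaled to library size (CPM), CPSF7 stood at 68.1 and 51.8 in CFIm59 knockout lines and 54.4 in the control. In CFIm68 knockout lines CPSF7 was higher, at 135 and 221 CPM. CPSF6 stood at 50.6 and 49.6 CPM there, against 109 CPM in the control. A read at a gene's 3′ end lies outside an edit elsewhere in the gene, so it does not check a knockout. VIM and SALL1, which embryonic kidney lines express, were read in every library. HBB, COL1A2 and PECAM1 (blood, fibroblast and endothelial cells) had 0 reads in all 5 libraries, and the lists of 3 markers each for these cell types summed to 0 to 13 reads per library. The 3 epithelial markers (CDH1, KRT19 and EPCAM) summed to 48 and 22 reads in CFIm68 knockout lines, 95 and 38 in CFIm59 knockout lines and 27 in the control, with KRT19 at 0 in the CFIm68 knockout lines and the control, and their part in the results below was not tested.

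The 3′ ends of 3 genes whose site choice differed are shown because they let the signal at each of the competing ends be read. Each is the last 30 bases of an annotated GENCODE 29 transcript, 5′ to 3′ on the transcript's strand, with the poly(A) signal (AATAAA or ATTAAA) in capitals. The ends were tied to a gene's pair of sites only by equal spacing within 3 nt, since the files' positions are on hg19 and the transcripts on GRCh38; of 38 tested pairs, 9 had ends of equal spacing and 3 of these had a signal at both ends. For each of the 3 genes 2 annotated pairs of ends had that spacing, lying within 6 nt of each other, and the pair closest in spacing is shown.
SMARCAD1, proximal end: cattataAATAAActtatttataaatcaaa
SMARCAD1, distal end: cttgggcttAATAAAaatatttgtgatcat
KDM3B, proximal end: ttttttttttaAATAAAagtcatttaatgt
KDM3B, distal end: catgttcttATTAAAaatctaacaaatctg
SETD4, proximal end: tttcagttttAATAAAaatatcaaaacctt
SETD4, distal end: cccttgaacATTAAAaacttcgcagaccct
SMARCAD1 has AATAAA at both ends, 23 nt before the proximal end and 21 nt before the distal one, counted from the first base of the signal. KDM3B and SETD4 have AATAAA at the proximal end and ATTAAA, the commonest variant, at the distal end. The sequence TGTA (UGUA in the RNA, searched on the transcript strand only) stands 2 times in the last 100 bases at each SMARCAD1 end, 3 and 2 times at the proximal and distal KDM3B ends, and 1 and 0 times at those of SETD4. Among 519 pairs of ends matched the same way with a signal at both, 56.6% of proximal and 59.3% of distal ends held TGTA in that window. Of 1045 pairs of all tested genes with ends of equal spacing, 519 had a signal at both ends, beside 3 of 9 for the chromatin genes. Among all 51621 annotated ends of the tested genes, 24.1% held AATAAA or ATTAAA in the last 30 bases. TGTA stood in the last 100 bases of 37.9% of them. These ends come from every annotated transcript and were not picked as poly(A) sites, so these shares are not those of cleavage sites.

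Site use was compared as the share of reads at the proximal site among reads at a gene's 2 most used sites, where proximal means upstream on the gene's strand. Genes entered with an average of 20 or more reads per library over both sites and 5 or more at each, which left 38 of the 74 genes. The log2 values compare the proximal to distal ratio, so that a positive value is a change to the proximal site in the group named first. Changes were tested with the quasi-likelihood test of edgeR, and p-values were adjusted by Benjamini and Hochberg's method over all 5869 genes, with a threshold of 0.05. The spread in these tests is that between cell lines of 1 genotype, which the lone control is assumed to share.

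In CFIm68 knockout lines, 10 of the 38 chromatin genes changed to the proximal site against the control, where 25.3% of all genes tested did. None changed to the distal site, against 3.14% of all genes; 1 of the 38 did so at an unadjusted p under 0.05 and 0 with DESeq2. The median change was 3.84 percentage points toward proximal over the 38 genes and 5.16 over all genes tested, so the chromatin genes were close to the background in number and size. By role, the changed genes were 4 of 10 SWI/SNF and SMARC genes (SMARCAD1, ARID2, SMARCA5, SMARCA1), 2 of 8 CHD remodellers (CHD9, CHD1), 2 of 8 lysine demethylases (KDM2B, KDM3B), 1 of 6 SETD genes (SETD6) and 1 of 3 deacetylases (HDAC8). With DESeq2 the calls of CHD9, SMARCAD1, SMARCA5 and SETD6 held, while ARID2, CHD1, HDAC8, KDM2B, KDM3B and SMARCA1 had adjusted p between 0.0614 and 0.275. The proximal site was also set against its whole gene, the site included (edgeR's diffSpliceDGE). Adjusted over the proximal sites of the tested genes, CHD9 and HDAC8 passed. Adjusted over all 63140 sites tested that way, HDAC8 did not (0.103). The others had adjusted p between 0.0542 and 0.973, with log2 values of 0.22 for SMARCAD1, 0.51 for SMARCA5, 0.52 for ARID2 and 1.09 for SETD6. These log2 values follow a site's share of its whole gene, so their scale differs from that of the proximal to distal ratio. For the most proximal and most distal sites of a gene, SMARCA5 (adjusted p = 0.143) and SETD6 (0.164) did not pass.

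**Figure D1:**
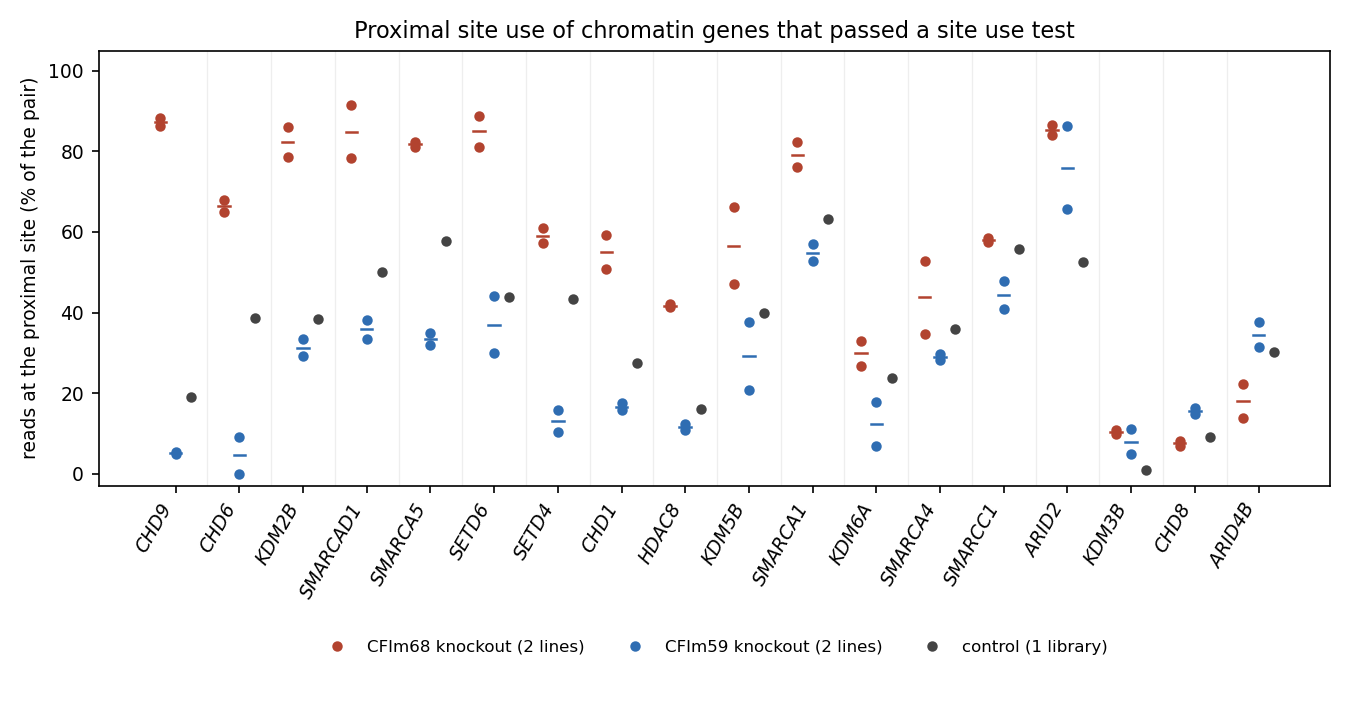
Reads at the proximal site as a percentage of the reads at each gene's pair of sites, for the 18 chromatin genes that passed a site use test in at least 1 comparison. Dots are libraries, short lines are means of 2 cell lines; CHD9 sits between 86.2% and 88.4% in the CFIm68 knockout lines, between 4.76% and 5.26% in the CFIm59 knockout lines and at 18.9% in the control.

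CHD9, a chromodomain helicase, had the largest change of the 38 genes. Its proximal site at chromosome 16, position 53359034 (hg19) took 38 of 43 and 25 of 29 reads in CFIm68 knockout lines, 1 of 21 and 2 of 38 in CFIm59 knockout lines, and 7 of 37 in the control. The 3 groups did not overlap, and the sites lie 2372 nt apart in the last exon. The proximal share averaged 87.3 ± 1.53% in CFIm68 knockout lines (SD, n = 2), against 18.9% in the control (95% Wilson interval 9.48% to 34.2%), a log2 change of 4.85 with a standard error of 0.80 (adjusted p = 1.71e-06). CHD1, a remodeller that acts at transcribed genes, had 32 of 54 and 28 of 55 reads at its proximal site in CFIm68 knockout lines, 11 of 63 and 15 of 95 in CFIm59 knockout lines and 22 of 80 in the control. Against the control, CHD1 changed by 27.6 points in CFIm68 knockout lines (log2 1.68 ± 0.54 SE, adjusted p = 0.0125), and the call was lost without CFIm68 knockout line 1 (adjusted p = 0.0796).

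SMARCA5 is the ATPase of most ISWI remodelling complexes and SMARCA1 is its close relative. At SMARCA5 (chromosome 4, proximal site at position 144474566 and distal site 956 nt further on), the proximal site took 271 of 329 and 206 of 254 reads in CFIm68 knockout lines, 58 of 181 and 77 of 221 in CFIm59 knockout lines, and 166 of 288 in the control. The control stood between the knockouts, with no overlap. The share was 81.7 ± 0.897% in CFIm68 knockout lines (SD, n = 2), against 57.6% in the control (log2 1.72 ± 0.40 SE, adjusted p = 0.000505). At SMARCA1 the proximal site, 252 nt upstream of the distal one, took 82.3% and 76.2% of the pair in CFIm68 knockout lines, 52.8% and 57.0% in CFIm59 knockout lines, and 63.2% in the control. The change of 16 points in CFIm68 knockout lines against the control passed (adjusted p = 0.0257) but not without CFIm68 knockout line 1 (adjusted p = 0.184).

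SMARCAD1, an SNF2-family remodeller that helps keep heterochromatin silent and acts at DNA breaks, has its pair of sites 470 nt apart in the last exon. The proximal site took 64 of 70 and 51 of 65 reads in CFIm68 knockout lines, 26 of 68 and 31 of 93 in CFIm59 knockout lines, and 37 of 74 in the control. Both CFIm68 knockout lines were above, and both CFIm59 knockout lines below, the control. The share was 84.9 ± 9.17% in CFIm68 knockout lines, against 50% in the control (SD, n = 2; log2 2.51 ± 0.57 SE, adjusted p = 0.000381). ARID2, a subunit of the PBAF form of SWI/SNF, had a proximal share of 86.5% and 84.1% in CFIm68 knockout lines, 86.2% and 65.8% in CFIm59 knockout lines, and 52.5% in the control. The knockout lines overlapped each other and all 4 lay above the control; ARID2 passed in CFIm68 knockout lines (log2 2.38 ± 0.72 SE, adjusted p = 0.00771), while in CFIm59 knockout lines the log2 value was 1.42 (adjusted p = 0.253).

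KDM2B, a demethylase that brings a Polycomb complex to CpG islands, had a proximal share of 86.05% and 78.6% in CFIm68 knockout lines, 33.3% and 29.2% in CFIm59 knockout lines, and 38.5% in the control. The CFIm68 knockout lines stood apart from the other 3 libraries, on 15 to 43 reads per library. The change of 43.8 points against the control (log2 2.93 ± 0.83 SE, adjusted p = 0.00449) was lost without CFIm68 knockout line 1 (adjusted p = 0.0558). KDM3B, a histone H3 demethylase, used its minor proximal site, 88 nt upstream of the main one, for 11 of 101 and 9 of 91 reads in CFIm68 knockout lines, 8 of 73 and 5 of 103 in CFIm59 knockout lines, and 1 of 108 in the control. All 4 knockout lines were above the control, whose share was 0.926% (95% Wilson interval 0.164% to 5.06%); the change passed in CFIm68 knockout lines (9.46 points, adjusted p = 0.00842) and not in CFIm59 knockout lines (6.98 points, adjusted p = 0.112). The KDM3B ends printed above were matched to these sites by spacing alone.

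SETD6, which methylates the NF-kappaB subunit RelA, had a proximal share of 88.9% and 81.1% in CFIm68 knockout lines, 30% and 44.0% in CFIm59 knockout lines, and 43.9% in the control. The CFIm68 knockout lines stood apart (log2 2.76 ± 0.74 SE, adjusted p = 0.00268 against the control). HDAC8, a deacetylase of the cohesin ring, has its pair 238070 nt apart, in different last exons. The promoter-side exon end took 42 of 100 and 36 of 87 reads in CFIm68 knockout lines, 3 of 28 and 5 of 41 in CFIm59 knockout lines, and 13 of 81 in the control (log2 1.89 ± 0.55 SE for CFIm68 knockout against control, adjusted p = 0.00534).

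In CFIm59 knockout lines, 2 of the 38 genes changed to the distal site against the control, SETD4 and SMARCA5, where 5.38% of all genes tested did. None changed to the proximal site, against 1.02% of all genes; 2 of the 38 did at an unadjusted p under 0.05 and 0 with DESeq2. SETD4, a SET domain methyltransferase, has an intron site as its proximal site, 9144 nt upstream of the end of the last exon. That intron site took 39 of 64 and 36 of 63 reads in CFIm68 knockout lines, 3 of 29 and 6 of 38 in CFIm59 knockout lines, and 29 of 67 in the control. The CFIm59 knockout lines were the low ones, with 13.1 ± 3.85% against 43.3% in the control (SD, n = 2; log2 -2.28 ± 0.67 SE, adjusted p = 0.0275). SMARCA5 fell to 33.4 ± 1.98% in CFIm59 knockout lines, against 57.6% in the control (log2 -1.43 ± 0.40 SE, adjusted p = 0.0178). Leaving out either line ended both calls. Without CFIm59 knockout line 1 the adjusted p was 0.171 for SETD4 and 0.132 for SMARCA5, and without line 2 it was 0.0966 and 0.0933. SMARCA5 was the 1 chromatin gene that passed to proximal in CFIm68 knockout lines and to distal in CFIm59 knockout lines. These comparisons share the control library, and how many of all genes passed in both ways is not given.

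Between the knockouts, 14 of the 38 chromatin genes used the proximal site more in CFIm68 than in CFIm59 knockout lines, where 40.7% of all genes tested did, and 2 used it less, against 6.2%. The median difference was 7.39 points for the 38 genes and 8.13 points for all genes. CHD9 differed most, with 87.3 ± 1.53% in CFIm68 knockout lines and 5.01 ± 0.354% in CFIm59 knockout lines (log2 6.90 ± 0.79 SE, adjusted p = 3.07e-11). SMARCA5 differed by 48.3 points (log2 3.15 ± 0.34 SE, adjusted p = 5.29e-12), SMARCAD1 by 49.2 points (adjusted p = 1.16e-08, but 0.178 for the proximal site against the whole gene with diffSpliceDGE) and SETD4 by 46.0 points (adjusted p = 4.02e-06). KDM2B, SETD6, CHD1, HDAC8 and SMARCA1 also passed, with differences of 24.3 to 51.1 points.

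Of the genes that passed between the knockouts, 7 passed in neither comparison with the control. The matching share of all genes is not given, so this number describes these genes only. CHD6, a relative of CHD9, used its proximal site for 24 of 37 and 19 of 28 reads in CFIm68 knockout lines, 0 of 11 and 2 of 22 in CFIm59 knockout lines, and 12 of 31 in the control. The control lay between the knockouts and the difference between them was 61.8 points (adjusted p = 9.65e-06); the 0 of 11 reads allow a share of up to 27.3%. In CFIm59 knockout lines against the control the CHD6 log2 value was -3.17, with an adjusted p of 0.0683, and of 0.0483 when pairs were limited to last exon sites. KDM5B, which removes methyl groups from histone H3 lysine 4, had proximal shares of 47.1% and 66.2% in CFIm68 knockout lines, 20.7% and 37.6% in CFIm59 knockout lines, and 39.8% in the control (log2 1.54 ± 0.44 SE between the knockouts, adjusted p = 0.00275). That call was lost without CFIm59 knockout line 1 (adjusted p = 0.0738) or CFIm68 knockout line 2 (adjusted p = 0.0928). It turned to a log2 value of -0.04 when the gene's most proximal and most distal sites were compared.

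KDM6A, a histone H3 lysine 27 demethylase, SMARCA4, the BRG1 ATPase, and SMARCC1, a core SWI/SNF subunit, differed by 17.5, 14.8 and 13.7 points, with sites 162, 199 and 129 nt apart (adjusted p = 0.0146, 0.0226 and 0.0478). The SMARCA4 shares were 52.8% and 34.7% in CFIm68 knockout lines, 28.1% and 29.7% in CFIm59 knockout lines, and 36% in the control. One CFIm68 knockout line lay below the control for SMARCA4 and the other above it. These 3 calls each rested on single lines. KDM6A lost its call without CFIm59 knockout line 1 (adjusted p = 0.222) or CFIm68 knockout line 1 (0.131), and SMARCA4 without CFIm59 knockout line 1 (0.105), CFIm59 knockout line 2 (0.0853) or CFIm68 knockout line 1 (0.43). SMARCC1 lost it without any 1 of the 4 knockout lines, with adjusted p between 0.0662 and 0.336. For the most proximal and most distal SMARCA4 sites the value turned to a log2 of -0.39 (adjusted p = 0.572).

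The 2 genes with less proximal use in CFIm68 than in CFIm59 knockout lines were CHD8 and ARID4B. CHD8, a chromodomain helicase, had an upstream exon site at 8.16% and 6.96% in CFIm68 knockout lines, 14.9% and 16.2% in CFIm59 knockout lines, and 9.02% in the control (adjusted p = 0.0462). Leaving out any 1 of the 4 knockout lines ended that call, with adjusted p between 0.0916 and 0.221. ARID4B, which belongs to the SIN3A corepressor complex, had 13.8% and 22.3% in CFIm68 knockout lines, 31.4% and 37.6% in CFIm59 knockout lines, and 30.3% in the control (log2 -1.33 ± 0.36 SE, adjusted p = 0.0017), and lost its call without CFIm59 knockout line 2 (adjusted p = 0.0561) or CFIm68 knockout line 1 (adjusted p = 0.0833). In CFIm68 knockout lines against the control ARID4B did not pass (log2 -1.04, adjusted p = 0.054) but did to distal with last exon sites only (0.0400).

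The distal ARID4B site, at chromosome 1, position 235294949, lies 35269 nt downstream of the proximal one. It is also listed under its neighbour RBM34 on the same strand, so its reads may belong to either gene. The pair may thus set an ARID4B end against an RBM34 end. The ARID4B value is uncertain, and so is its place in every count of this report that holds that pair. The 2 most used ARID4B last exon sites that no other gene shares lie at positions 235330611 and 235330218. The upstream one took 58 of 91 and 42 of 75 of their reads in CFIm68 knockout lines, 18 of 83 and 18 of 127 in CFIm59 knockout lines, and 20 of 137 in the control. This is a share of 63.7% and 56.0% in CFIm68 knockout lines, above the 21.7% and 14.2% of CFIm59 knockout lines and the 14.6% of the control. The site at 235330611 took a larger share of all ARID4B reads in CFIm68 than in CFIm59 knockout lines. The shares were 13.5 ± 1.05% and 4.85 ± 0.829% (SD, n = 2 each, edgeR's diffSpliceDGE, adjusted p = 0.00359). This is the opposite direction to the pair that ends at the shared site. All ARID4B reads include those of the shared site, so these shares are uncertain too.

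Genes often had further sites outside the pair, so each site of 5 or more reads was also compared with its whole gene. This used edgeR's diffSpliceDGE and adjustment over 63140 sites. This comparison was added after the data were seen. Of 428 chromatin gene sites, 4 took a larger share in CFIm68 knockout lines than in the control (1.17% of all sites did) and 4 a smaller one (1.39%). In CFIm59 knockout lines against the control there were 0 larger and 0 smaller (0.0364% and 0.0903% of all sites), with 11 and 13 at an unadjusted p under 0.05. Between the knockouts, 18 sites had a larger share in CFIm68 knockout lines (5.64% of all sites) and 19 a smaller one (4.74%).

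**Figure D2:**
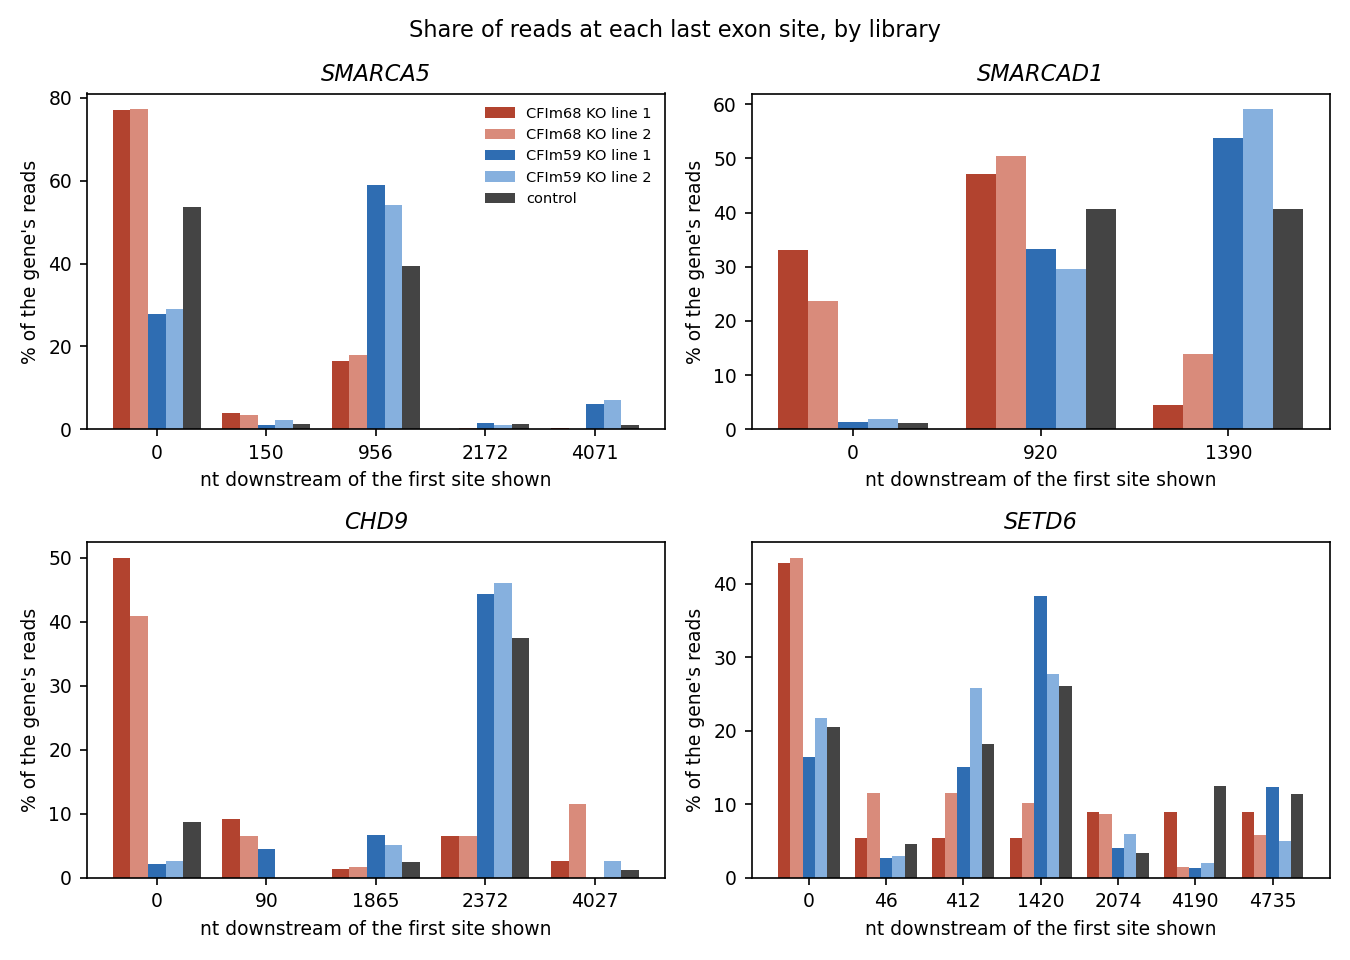
Reads at each last exon site with 10 or more reads, as a percentage of all reads of the gene (bars, 1 per library), for SMARCA5, SMARCAD1, CHD9 and SETD6, against the distance in nt from the first site shown. In SMARCAD1 the first site holds 33.1% and 23.8% of reads in the CFIm68 knockout lines, 1.28% and 1.90% in the CFIm59 knockout lines and 1.10% in the control.

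SMARCAD1 had a further site upstream of its pair, at position 95211049 of chromosome 4, which took 45 and 24 reads in CFIm68 knockout lines, 1 and 2 in CFIm59 knockout lines, and 1 in the control. Its share of the gene's reads was 28.4 ± 6.59% in CFIm68 knockout lines (SD, n = 2), against 1.10% in the control (adjusted p = 0.000872). With the proximal site of the pair, reads in CFIm68 knockout lines lay on the first and middle of 3 last exon ends, and the last of them, at position 95212439, had 6 and 14 reads in CFIm68 knockout lines, 42 and 62 in CFIm59 knockout lines, and 37 in the control. SMARCA5 showed the other end of the range: a site at position 144478637, downstream of its pair, had 1 and 0 reads in CFIm68 knockout lines (0 of 267 reads allows a share of up to 1.12%), 13 and 19 in CFIm59 knockout lines, and 3 in the control. That site differed between the knockouts (adjusted p = 3.52e-06) but not between CFIm59 knockout lines and the control (adjusted p = 0.325).

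SETD5 and CHD4 had their second most used site in an upstream exon, so their last exon choice was outside the pair. The SETD5 site at position 9518001 of chromosome 3, upstream of the main end at 9519816, took 16 and 21 reads in CFIm68 knockout lines, 0 and 2 in CFIm59 knockout lines, and 1 in the control (adjusted p = 0.0167 for CFIm68 knockout against control). When pairs were limited to last exon sites, SETD5 changed to proximal in CFIm68 knockout lines against the control (log2 4.05, adjusted p = 0.000184). CHD4, the main helicase of the NuRD complex, had 45 and 44 reads in CFIm68 knockout lines, 9 and 23 in CFIm59 knockout lines, and 43 in the control at position 6679504 of chromosome 12. Under the same limit it changed to distal in CFIm59 knockout lines against the control (log2 -1.66, adjusted p = 0.0153), whereas the pair with the upstream exon site gave no call (adjusted p = 0.271). KDM5A, another H3 lysine 4 demethylase, had 0 and 2 reads at position 390060 of chromosome 12 in CFIm68 knockout lines, 14 and 19 in CFIm59 knockout lines, and 16 in the control (adjusted p = 0.0123 for CFIm68 knockout against control); 0 of 62 reads allows a share of up to 4.84%.

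Calls varied with the distance between sites. The 30 chromatin genes whose pair lay in last exons had a median distance of 541 nt, against 974 nt over all tested genes with such pairs. In CFIm68 knockout lines against the control, 1 of 11 chromatin genes with sites under 250 nt apart changed to proximal, against 4.95% of all genes in that range. From 250 to under 1000 nt, 5 of 8 did, against 28.7% of all genes. From 1000 to under 4000 nt it was 3 of 9, against 45.9%, and at 4000 nt or more it was 1 of 2, against 27.7%. None of the 8 chromatin genes with an intron or upstream exon site in the pair changed, against 10.5% of all such genes. With 2 to 11 chromatin genes a range, these counts describe the genes and do not show that they differ from other genes.

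**Figure D3:**
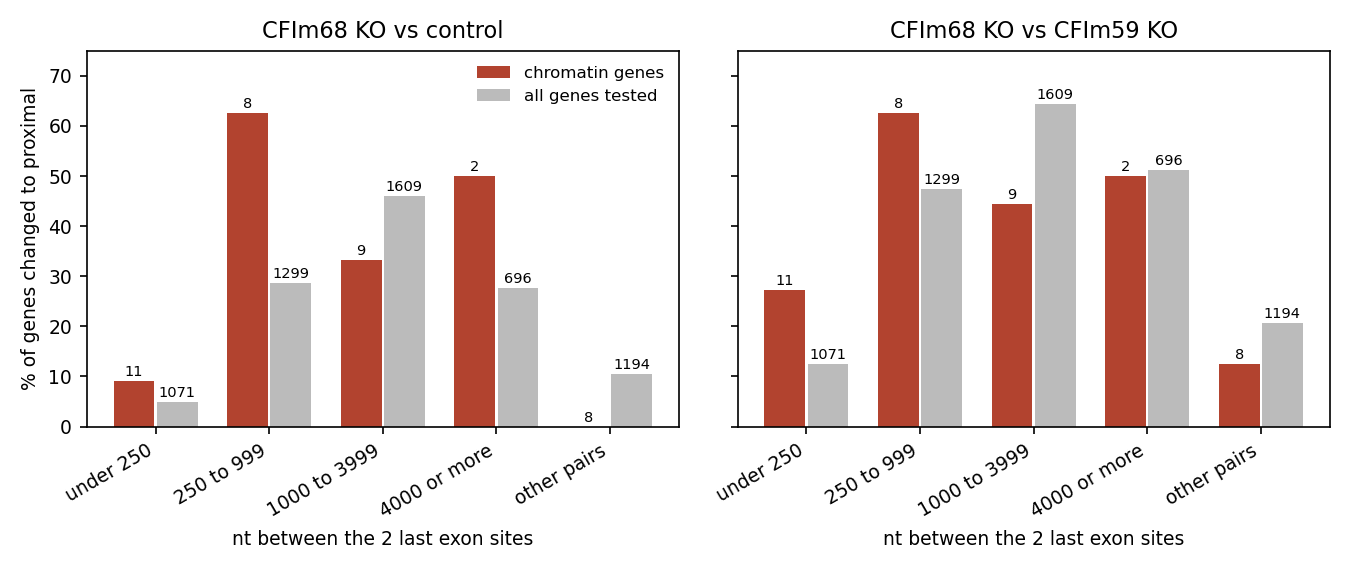
Percentage of genes that changed to the proximal site (bars), by the distance between the 2 sites in nt, for chromatin genes and for all genes tested, with the number of genes above each bar; "other pairs" hold an intron or upstream exon site. The left panel compares CFIm68 knockout lines with the control and the right panel with CFIm59 knockout lines; from 250 to under 1000 nt, 62.5% of 8 chromatin genes changed in either panel.

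Of the 38 genes, 20 passed in no site use comparison. The share of all tested genes that passed in none is not given. The most counted of these were HDAC2, CHD4, KDM5C, CHD3 and SETD5. HDAC2, a deacetylase of the NuRD, SIN3 and CoREST complexes, had a proximal share of 19.6% and 19.3% in CFIm68 knockout lines, 24.6% and 27.3% in CFIm59 knockout lines, and 22.6% in the control, on 293 to 583 reads per library, with sites 53 nt apart. Outside that pair, 3 minor HDAC2 sites of 19 to 40 reads took a smaller share of the gene in CFIm68 than in CFIm59 knockout lines (adjusted p = 0.0324, 0.0350 and 0.00421). KDM5C had 22.1% and 24.7% in CFIm68 knockout lines, 22.2% and 19.0% in CFIm59 knockout lines, and 21.9% in the control, with the knockout lines on either side of the control. For the most proximal and most distal sites, both genes passed to proximal in CFIm68 against CFIm59 knockout lines, HDAC2 with a log2 value of 2.86 (adjusted p = 0.0127) and KDM5C with 1.86 (adjusted p = 0.00947). SETD2, the H3 lysine 36 methyltransferase, had an upstream exon site at 23.2% and 26.1% in CFIm68 knockout lines, 28.3% and 19.7% in CFIm59 knockout lines, and 10.3% in the control; all 4 knockout lines were above the control without passing (adjusted p = 0.0708 for CFIm68 knockout and 0.213 for CFIm59 knockout).

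Reads summed over the intron sites of a gene were then compared with those at its last exon sites, for the 28 chromatin genes with enough reads of each kind. SETD4 alone passed, with more intron ends in CFIm68 than in CFIm59 knockout lines, where 4.42% of all 3621 genes had more and 7.37% less. Its intron share was 59.4% and 56.9% in CFIm68 knockout lines, 11.4% and 17.8% in CFIm59 knockout lines, and 43.1% in the control, and the knockouts differed by 43.6 points (log2 2.96 ± 0.54 SE, adjusted p = 3.53e-06). Against the control the adjusted p was 0.486 in CFIm68 knockout lines and 0.0559 in CFIm59 knockout lines. No chromatin gene passed in CFIm68 knockout lines against the control (1.02% of all genes more, 1.24% less), with 0 at an unadjusted p under 0.05 and 0 with DESeq2. None passed in CFIm59 knockout lines against the control either (0.884% more, 0.718% less), with 1 more and 2 less at an unadjusted p under 0.05 and 0 with DESeq2.

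Expression was compared as reads summed over all sites of a gene, in CPM after TMM scaling, for the 67 chromatin genes that passed the filter on low counts of 14636 genes. In CFIm68 knockout lines against the control, 0 of 67 were higher and 0 lower by edgeR's test, where 1.59% and 2.03% of all genes were. At an unadjusted p under 0.05 there were 3 higher and 4 lower, and DESeq2 gave 0 of each. SMARCA5, whose site use changed in both knockouts, stood at 122 and 119 CPM in CFIm68 knockout lines, 125 and 110 CPM in CFIm59 knockout lines, and 117 CPM in the control. SETD5-AS1, transcribed antisense to SETD5, had 35.4 and 28.9 CPM in CFIm68 knockout lines, 28.8 and 14.9 CPM in CFIm59 knockout lines and 15.0 CPM in the control. It did not pass (log2 1.10 ± 0.36 SE for CFIm68 knockout against control, adjusted p = 0.0720) but did without either CFIm59 knockout line (adjusted p = 0.0499 without line 1 and 0.0451 without line 2) or without CFIm68 knockout line 2 (0.0448).

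**Figure D4:**
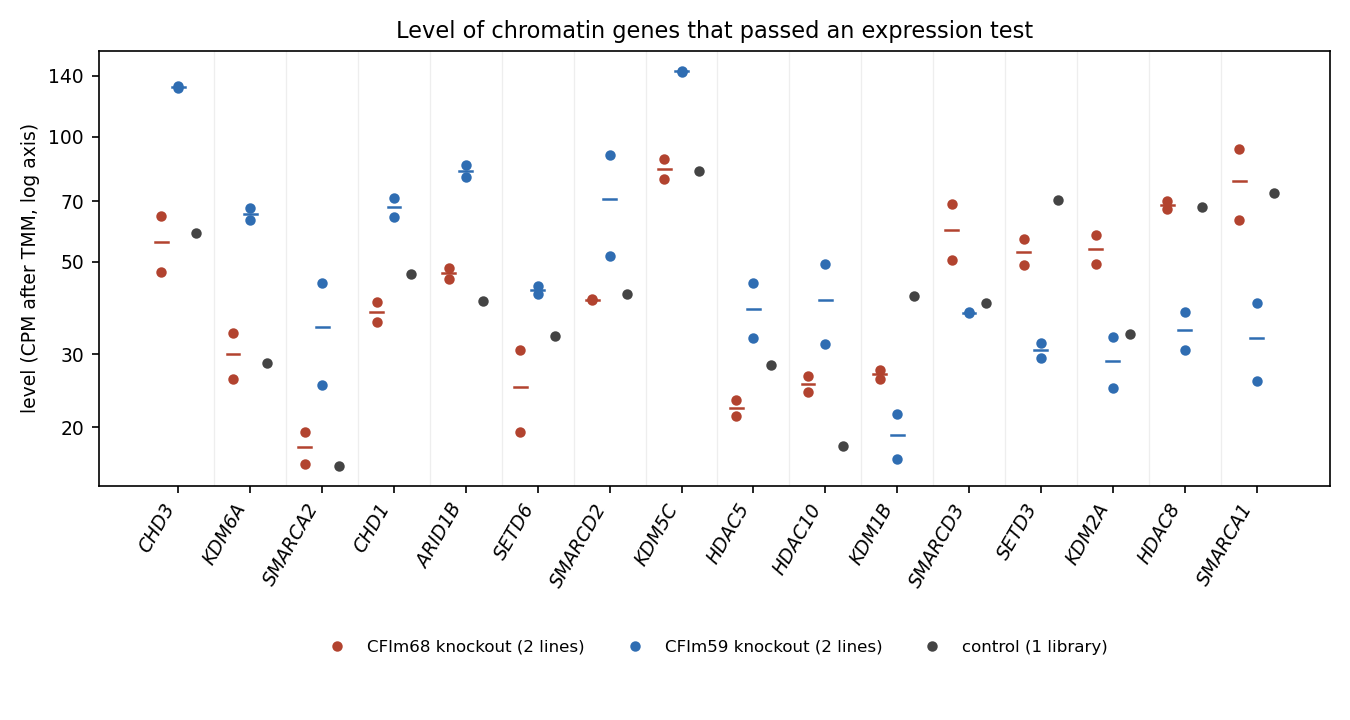
Level in CPM after TMM scaling (log axis) of the 16 chromatin genes that passed an expression test in at least 1 comparison; dots are libraries and short lines are means of 2 cell lines. CHD3 and KDM5C stand highest in the CFIm59 knockout lines, with CHD3 at 132 and 131 CPM there, against 47.3 and 64.4 CPM in the CFIm68 knockout lines and 58.7 CPM in the control.

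In CFIm59 knockout lines against the control, 6 of 67 were higher, where 6.98% of all genes were, and 4 were lower, where 6.87% were. The 6 higher genes were HDAC10, KDM6A, CHD3, SMARCA2, ARID1B and KDM5C. CHD3, a NuRD helicase, had 132 and 131 CPM in CFIm59 knockout lines, against 58.7 CPM in the control (log2 1.16 ± 0.27 SE, adjusted p = 0.0021). KDM6A had 67.2 and 63.0 CPM in CFIm59 knockout lines, against 28.6 CPM in the control (log2 1.18 ± 0.30 SE, adjusted p = 0.00406), and ARID1B, a BAF subunit, had 79.9 and 85.3 CPM, against 40.2 CPM in the control (adjusted p = 0.00726). For these 3 genes both CFIm59 knockout lines stood above every other library. HDAC10, a polyamine deacetylase, lost its call without CFIm59 knockout line 2 (adjusted p = 0.203), SMARCA2, the BRM ATPase, without line 1 (0.363), and KDM5C without line 1 (0.0966) or line 2 (0.10). With DESeq2 CHD3 was the 1 of the 6 that passed, with KDM6A (adjusted p = 0.0842) and ARID1B (0.0854) among those lost.

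The 4 lower genes in CFIm59 knockout lines were SETD3, SMARCA1, KDM1B and HDAC8. SETD3 had 29.4 and 31.9 CPM in CFIm59 knockout lines, against 70.3 CPM in the control (log2 -1.19 ± 0.27 SE, adjusted p = 0.00163). SMARCA1 had 25.8 and 39.8 CPM in CFIm59 knockout lines, against 73.3 CPM in the control (log2 -1.13 ± 0.29 SE, adjusted p = 0.00409), and did not pass without CFIm59 knockout line 1 (adjusted p = 0.0839). KDM1B, a histone H3 demethylase, lost its call without line 1 (0.098) and HDAC8 without line 2 (0.119). With DESeq2 0 of the 4 passed, with SETD3 at an adjusted p of 0.0615. The median log2 change in CFIm59 knockout lines against the control differed between chromosomes, with 0.02 over all genes. It was 0.29 on chromosome 17 (CHD3), 0.39 on chromosome 9 (SMARCA2) and -0.14 on chromosome 14 (SETD3). On chromosome 22 (HDAC10) it was -0.39, on chromosome X (KDM6A, KDM5C, SMARCA1, HDAC8) -0.21 and on chromosome 6 (ARID1B, KDM1B) -0.06. CHD3, SMARCA2, SETD3, SMARCA1, HDAC8 and KDM1B changed in the direction of their chromosome's median. HDAC10, KDM6A, KDM5C and ARID1B changed in the other direction. The part of these medians in the changes was not tested. Fewer cells that express a gene and less of its RNA per cell cannot be told apart in RNA pooled from many cells.

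Between the knockouts, 5 of 67 genes were higher in CFIm68 knockout lines, where 9.46% of all genes were: SMARCA1, HDAC8, KDM2A, SETD3 and SMARCD3. Another 10 were lower, where 10.3% of all genes were: CHD3, KDM6A, SMARCA2, CHD1, ARID1B, SETD6, SMARCD2, KDM5C, HDAC5 and HDAC10. SMARCA1 had 93.5 and 63.0 CPM in CFIm68 knockout lines, against 25.8 and 39.8 CPM in CFIm59 knockout lines (log2 1.24 ± 0.24 SE, adjusted p = 0.000139). CHD3 had 47.3 and 64.4 CPM in CFIm68 knockout lines, against 132 and 131 CPM in CFIm59 knockout lines (log2 -1.24 ± 0.22 SE, adjusted p = 2.35e-05). HDAC8 had 69.8 and 67.0 CPM in CFIm68 knockout lines, against 37.8 and 30.7 CPM in CFIm59 knockout lines (adjusted p = 0.00102). The lines of the knockouts did not overlap for these 3 genes. The genes were named because they passed, so this adds no support to the calls. Chromosome medians of the log2 value between the knockouts also differed, with 0.001 over all genes. They were -0.24 on chromosome 17 (CHD3, SMARCD2, HDAC5), -0.18 on chromosome 5 (CHD1) and -0.17 on chromosome 9 (SMARCA2). On chromosome 11 (KDM2A) the median was 0.23. KDM6A, KDM5C, ARID1B and HDAC10 differed against their chromosome's median and the other named genes with it. The part of these medians was not tested.

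CHD1, SETD6 and KDM6A, which used their proximal sites more in CFIm68 knockout lines, were also lower there than in CFIm59 knockout lines, with log2 values of -0.85, -0.79 and -1.11. HDAC8 and SMARCA1 used theirs more and were higher. In CFIm68 knockout lines against the control, the level of none of these genes passed. The log2 values there were -0.30 for CHD1, -0.42 for SETD6, 0.08 for KDM6A, 0.02 for HDAC8 and 0.10 for SMARCA1. In CFIm59 knockout lines against the control they were 0.54, 0.37, 1.18, -0.99 and -1.13, in the same order. Single lines decided several of the calls between the knockouts. With DESeq2 SMARCA1, HDAC8, CHD3, KDM6A and KDM5C were those that passed. Without CFIm59 knockout line 2 the higher genes numbered 1, with HDAC8 (adjusted p = 0.0578), KDM2A (0.156), SETD3 (0.078) and SMARCD3 (0.17) lost. SETD3 was also lost without CFIm59 knockout line 1 (0.109) or CFIm68 knockout line 2 (0.0933), and SMARCD3 without CFIm59 knockout line 1 (0.134) or CFIm68 knockout line 1 (0.38). The lower genes numbered 6 without either CFIm59 knockout line and 5 without CFIm68 knockout line 1. Among them SETD6 was lost in all 3 of these cases (adjusted p = 0.0776, 0.0772 and 0.325), CHD1 without CFIm59 knockout line 2 (0.0699) or CFIm68 knockout line 1 (0.0541), SMARCA2 without CFIm59 knockout line 1 (0.371) or CFIm68 knockout line 1 (0.104), and ARID1B without CFIm59 knockout line 2 (0.058). SMARCD2 was lost without CFIm59 knockout line 1 (0.442), and HDAC5 without that line (0.266), CFIm68 knockout line 1 (0.0707) or CFIm68 knockout line 2 (0.115). HDAC10 was lost without the control (0.0512), CFIm59 knockout line 2 (0.613), CFIm68 knockout line 1 (0.186) or CFIm68 knockout line 2 (0.0843).

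Partner genes of the same complexes, from lists of known subunits, were tested in the same fit. In CFIm68 knockout lines against the control, other SWI/SNF subunits gave 2 of 10 to proximal and 2 to distal, NuRD and deacetylase corepressors 5 of 16 and 2, and ISWI, INO80 and SRCAP genes 4 of 14 and 1, where 25.3% of all genes tested changed to proximal and 3.14% to distal. Other lysine methyltransferases gave 4 of 14 to proximal and 0 to distal, acetyltransferases 1 of 9 and 0, and bromodomain readers with other demethylases 1 of 8 and 0. PBRM1, a PBAF subunit like ARID2, had a proximal share of 74.2 ± 0.201% in CFIm68 knockout lines, 9.48 ± 1.89% in CFIm59 knockout lines, and 19.7% in the control (log2 3.54 for CFIm68 knockout against control, adjusted p = 7.23e-07). SS18, a BAF subunit, had 48.6 ± 0.543% in CFIm68 knockout lines, 1.27 ± 0.192% in CFIm59 knockout lines, and 1.26% in the control (adjusted p = 4.98e-11). For the most proximal and most distal sites neither passed, with log2 values of 1.03 for PBRM1 (adjusted p = 0.367) and 0.91 for SS18 (adjusted p = 0.485). In the other direction, PHF10, also of PBAF, had 16.7% in CFIm68 knockout lines, 52.9% in CFIm59 knockout lines and 40.0% in the control (adjusted p = 0.000312), so the most used sites of 2 PBAF subunits passed in opposite directions. For the most proximal and most distal PHF10 sites the direction turned, with a log2 value of 5.80 (adjusted p = 0.00388). SAP130, of the SIN3A complex, had 5.41% in CFIm68 knockout lines, 34.7% in CFIm59 knockout lines and 34.4% in the control (adjusted p = 4.7e-06); with last exon sites only its log2 value turned to 1.12 (adjusted p = 0.154).

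Between the knockouts, 40.7% of all genes tested had more proximal use in CFIm68 knockout lines and 6.2% had less. Other SWI/SNF subunits gave 2 of 10 and 3, and NuRD and deacetylase corepressors 5 of 16 and 3. ISWI, INO80 and SRCAP genes gave 4 of 14 and 1, and acetyltransferases 3 of 9 and 0. Bromodomain readers with other demethylases gave 4 of 8 and 0. Other lysine methyltransferases had the highest share of these lists, with 9 of 14 and 0. Their median difference was 21.0 points, against 8.13 over all genes and -2.27 to 12.2 in the other lists. WHSC1 (also called NSD2), a histone H3 methyltransferase, had a proximal share of 88.8 ± 0.447% in CFIm68 knockout lines and 49.0% in CFIm59 knockout lines (log2 3.05 ± 0.36 SE, adjusted p = 1.32e-10), with 62.4% in the control. In CFIm59 knockout lines against the control, KMT2A, the founding member of the MLL family, was the 1 of these 14 that changed to distal. Of all genes, 5.38% did so. The KMT2A adjusted p was 0.0246, and it did not pass without CFIm59 knockout line 1 (0.0842) or line 2 (0.128). In the same comparison MTA1, 1 of 16 NuRD and deacetylase corepressors, changed to proximal, where 1.02% of all genes did. The remaining lists gave 0 either way.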

How the data were processed

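Total RNA was read by poly(A) site sequencing: per the labels' protocols, fragmented RNA was copied with an oligo(dT) primer, and circularised, reopened cDNA was amplified. The authors deposited unnormalised read counts for every poly(A) site in each library, beside its gene symbol, strand and class (intron, upstream exon or last exon); these are in the table, per the file headers. The submitters' processing notes name hg19, TopHat2 2.1.0 and deepTools 2.4, with no role given. The calling of sites, the handling of internal priming, the annotation release and whether positions count from 0 or 1 are not stated in the labels or headers. Sites listed under several genes carry their reads in the first listing only (0 reads in the repeated listings), so reads of overlapping genes stand under 1 of them. Whether the random bases of the primer were used to remove duplicate reads is not stated, so intervals and limits cover counting error only; a share of 0 allows up to 3 reads of its total.

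Each gene was represented by its 2 sites with the highest read total. Proximal and distal counts, and intron and last exon sums, were fitted with edgeR 4.0.16 (R 4.3.3, glmQLFit and glmQLFTest) using library terms and the interaction of site and group. Reads per gene were filtered with filterByExpr, scaled by TMM and fitted by group. The fits held 5869, 3621 and 14636 genes, p-values were adjusted by Benjamini-Hochberg over each fit, 2-sided, and a standard error is the log2 value over the square root of F. All 5 libraries entered each fit except where 1 was left out. The pipeline was tested on simulated data. Alternatives were DESeq2 1.42.0, diffSpliceDGE, other read minimums, other choices of sites, other scaling, no filter, leaving out each library and a block for line number. Wilson intervals at 95% were computed with statsmodels. GENCODE 29 transcript ends gave the sequences, with no conversion of coordinates.

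The chromatin genes, the partner lists and the tests were chosen with earlier results of these data known. The rule named up to 10 chromatin genes each way for site use and 6 for expression, by largest change among those that passed; the others that passed are named too, and were chosen after their values were seen. Partner genes are some of the up to 4 a list with the largest change among those that passed, likewise picked with values known. Line numbers did not pair the libraries: the deviations of same-numbered lines from their group means had a correlation of -0.0199 across genes.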

Additional observations from a re-analysis of the deposited data

How the results depend on the processing

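The cause of the differences below was not tested, beyond the number of genes or libraries a setting leaves. For the chromatin genes that passed, site use kept its direction and call under 216 alternatives, lost the call under 65 and turned under 2; expression kept it under 151 and lost it under 54, and the intron share kept it under 9 of 9. For the partner genes given with values, 82 kept, 18 lost and 2 turned. For the outermost sites the log2 value turned to -0.036 for KDM5B (adjusted p = 0.958) and -0.39 for SMARCA4 (adjusted p = 0.572) between the knockouts, and to 5.80 for PHF10 in CFIm68 knockout lines against the control. With last exon sites only it turned to 1.12 for SAP130.

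Counts of chromatin genes in the report were 10 to proximal in CFIm68 knockout lines against the control, 2 to distal in CFIm59 knockout lines against the control, and 14 to proximal and 2 to distal between the knockouts. With minimums of 100 and 20 reads, which left 10 chromatin genes, these were 2, 1, 4 and 1. With DESeq2 they were 4, 0, 11 and 1. With diffSpliceDGE, fitted to all sites and adjusted over the pairs' proximal sites, they were 2, 0, 9 and 1. With no minimum the CFIm59 knockout count was 0 and the distal count between the knockouts 1. With last exon sites only, the CFIm59 knockout count was 3 (SMARCA5, CHD4 and CHD6), the distal count between the knockouts was 1, and for the outermost sites of a gene (most proximal against most distal) it was 0. To distal in CFIm68 knockout lines against the control, the count was 0 in the report. It was 1 with minimums of 100 and 20 reads, with last exon sites only and with diffSpliceDGE (ARID4B each time). For the outermost sites it was 1 (CHD4). With adjustment over all 63140 sites, the ARID4B diffSpliceDGE adjusted p was 0.0641 rather than 0.0268. DESeq2 gave 1 higher and 0 lower gene in CFIm59 knockout lines against the control (6 and 4 in the report), and 2 higher and 3 lower between the knockouts (5 and 10). The 1 gene with more intron ends between the knockouts became 0 with minimums of 100 and 20 reads and 2 with upstream exon sites included.

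Leaving out 1 library at a time gave 8 to 11 genes to proximal and 0 to 1 to distal in CFIm68 knockout lines against the control, 0 to 2 to distal in CFIm59 knockout lines, and 10 to 14 to proximal and 0 to 2 to distal between the knockouts. For expression it gave 0 to 1 higher in CFIm68 knockout lines against the control, 4 to 7 higher and 2 to 4 lower in CFIm59 knockout lines, and 1 to 5 higher and 5 to 10 lower between the knockouts. The replicate block of line number, for which no sharing of material is given, left 14 genes to proximal and 2 to distal and 5 higher, with 13 lower in place of 10; no paired analysis with the control was possible because it has no second library. Pairs of 11 to 43 reads per library leave wide intervals on the shares of CHD9, CHD6 and KDM2B.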

Other observations

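Some partner genes also differed in level, in CPM after TMM scaling and by edgeR's quasi-likelihood test. In CFIm59 knockout lines against the control, 6.98% of all genes were higher and 6.87% lower. Other SWI/SNF subunits gave 2 of 17 higher and 0 lower, and NuRD and deacetylase corepressors 2 of 21 and 0. ISWI, INO80 and SRCAP genes gave 1 of 18 and 1, and other lysine methyltransferases 2 of 21 and 1. Acetyltransferases gave 0 of 17 and 1, and bromodomain readers with other demethylases 1 of 9 and 1. In CFIm59 knockout lines against the control, BRD9, of the non-canonical BAF complex, had 36.6 ± 1.61 CPM, against 13.5 CPM in the control (log2 1.43 ± 0.35 SE, adjusted p = 0.00324), with 14.4 CPM in CFIm68 knockout lines. INO80C, a subunit of the INO80 complex, had 15.3 ± 2.94 CPM in CFIm59 knockout lines, against 44.0 CPM in the control (log2 -1.54 ± 0.32 SE, adjusted p = 0.000434). In CFIm68 knockout lines, SAP18 was lower than in the control, with 106 CPM against 197 CPM (log2 -0.89 ± 0.24 SE, adjusted p = 0.0224). The acetyltransferase KAT2B was higher, with 29.4 CPM against 12.4 CPM (adjusted p = 0.0471). They were 1 of 21 NuRD and deacetylase corepressors and 1 of 17 acetyltransferases tested, and no gene of the other lists passed. Of all genes, 1.59% were higher and 2.03% lower in that comparison. Chromosome medians of the log2 change differed there too, with 0.02 over all genes and -0.34 on chromosome 13, the lowest. Their part in the SAP18 and KAT2B changes was not tested. BRD9 did not pass under every alternative setting. SAP18 did not pass without CFIm68 knockout line 2 (adjusted p = 0.0868), nor KAT2B without line 1 (0.117).

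Intron ends fell in CFIm68 knockout lines against the control for 1 of 6 other SWI/SNF subunits tested, 1 of 12 NuRD and deacetylase corepressors and 0 in the remaining lists, where 1.24% of all 3621 genes did. These were BCL11A, by 30 points (adjusted p = 0.013), and SAP130, by 25.2 points (adjusted p = 0.000707). Without CFIm68 knockout line 1 or line 2 neither passed, with adjusted p of 0.32 and 0.25 for BCL11A and 0.0995 and 0.102 for SAP130. Among the chromatin genes chosen by name, no such change passed in that comparison.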
